A study of Mus musculus with 8 samples.

Results

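The genes described here encode plasma proteins that hepatocytes of the fetal liver make and secrete, grouped by role as carriers, coagulation factors, protease inhibitors and complement. They were named as a list of 38 genes, and a gene was measured when the array held a probe set, a group of short probes to 1 transcript, whose only gene symbol was that gene. By this rule 35 of the 38 genes had 49 probe sets, of 45101 probe sets and 18193 genes on the array. A probe set was tested when its mean signal in WT or in KO was above 100, which 46 of the 49 passed. A gene is represented by its brightest probe set, the one with the highest mean over all arrays, and 34 of the 38 genes were tested on it, of 11292 genes tested in all. Mbl2, the mannose-binding lectin that starts a complement pathway, was measured but not tested, with a mean log2 signal of 6.35 in WT and 4.63 in KO, both below a signal of 100. Trf (transferrin, the iron carrier) lay only on a probe set with several symbols, and Gc (the vitamin D carrier) and C3 (the central complement component) had no probe set of their own here, so these 3 genes were not analysed here.

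RNA came from whole fetal livers at E14.5, from 4 wild-type (WT) embryos, which carry replicate numbers 1 to 4, and 4 Eklf knockout (KO, Eklf-/-) embryos, numbered 2 to 5, with 1 array for each embryo. Eklf, also called Klf1, encodes a zinc finger transcription factor of red blood cell precursors. The KO mice were B6 lines homozygous for a knockout of the gene, made with a bacterial artificial chromosome that carried an engineered Eklf locus and with E2A-Cre mice, so every cell of a KO embryo lacked the gene and no cell type was targeted. The livers were not sorted or cultured and received no treatment, and the sources used here give neither sex nor litter.

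The fetal liver is both the main site of red cell formation and the organ that supplies the embryo's plasma. Its hepatoblasts and young hepatocytes secrete alpha-fetoprotein, albumin, transport proteins, clotting factors and the inhibitors that restrain proteases in blood, and their genes are read under factors such as HNF1, HNF4 and C/EBP. EKLF itself is known from the erythroid cells that mature among the hepatocytes. In RNA of a whole organ, fewer hepatocytes and less RNA of a gene per hepatocyte cannot be told apart.

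The promoters of these genes were compared with those of the genome before the levels, because the letters that EKLF and the hepatocyte factors read are known. Promoter windows of RefSeq on GRCm38.p6, from 250 bases before to 50 bases after the start of a gene, were given for 31 of the 38 genes (32 windows, since Rbp4 had 2), and the letters were searched on both strands. The EKLF letters CCNCNCCC stood in 16 of the 32 windows and in 49.5% of all 32851 windows, and the shorter letters CACCC, which can overlap them, in 68.8% and 57.5%. The HNF1 letters GTTAATNAT stood in 15.6% of the windows of these genes and in 0.801% of all, the C/EBP letters TTGCNNAA in 37.5% and 10.8%, and the letters TATAAA in 21.9% and 13.6%. The HNF4 letters CAAAGTCCA stood in 0 of the 32 windows and in 0.475% of all. A match of letters is a description and not a bound site.

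The HNF1 letters were held by Afp, Alb, Fga, Gc and Hc, and the stretches of the 4 measured genes among them are shown, 120 bases that end just before the start of the gene, with the matching letters in capitals. Alb and Afp lie side by side, at chr5:90460750-90460869 and chr5:90490594-90490713 on the plus strand. Fga, on the plus strand, is shown over chr3:83026033-83026152, and Hc, on the minus strand, over chr2:35061413-35061532, all on GRCm38.p6 and all written 5′ to 3′ on the strand of the gene.
Alb: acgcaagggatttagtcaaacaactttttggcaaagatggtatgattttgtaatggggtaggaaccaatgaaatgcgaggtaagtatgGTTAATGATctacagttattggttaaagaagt
Afp: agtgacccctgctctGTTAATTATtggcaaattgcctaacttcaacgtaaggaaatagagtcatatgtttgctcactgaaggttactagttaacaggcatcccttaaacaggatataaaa
Fga: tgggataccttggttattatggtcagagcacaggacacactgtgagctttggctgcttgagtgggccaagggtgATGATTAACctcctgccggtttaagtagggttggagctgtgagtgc
Hc: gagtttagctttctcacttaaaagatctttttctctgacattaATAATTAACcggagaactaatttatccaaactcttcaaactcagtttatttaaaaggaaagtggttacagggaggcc
Counted from the start, the letters lay at -32 to -24 in Alb, -105 to -97 in Afp, -46 to -38 in Fga and -77 to -69 in Hc, where Fga and Hc held them on the opposite strand. The EKLF letters also stood in the windows of Alb and Fga, but not in those of Afp and Hc.

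Each array had been scaled by the authors to the same trimmed mean of 500, so a value is relative to the rest of its array. Klf1 was 9.81-fold lower in KO, with log2 signals of 13.87 to 14.04 in WT and 10.56 to 10.81 in KO (difference -3.29, SE 0.10, limma adjusted p = 5.9e-07). The sources used here do not say whether its probe set lies in the deleted part. Other features of the arrays also separated the groups. The array medians ran from 79.5 to 84.1 for WT and from 96.7 to 114.0 for KO, and the brightest probe set of an array from 54914 to 60410 and from 32642 to 39185. The 18 hybridisation controls had mean log2 signals of 12.36 to 12.55 for WT and 11.54 to 11.85 for KO. The control for 18S ribosomal RNA read 11.83 to 12.03 in WT arrays and 7.67 to 8.32 in KO arrays. The 3′ less the 5′ probe set of Actb, a sign of RNA quality, was 0.76 to 0.93 in WT arrays against 0.49 to 0.61 in KO arrays. WT replicate 1 alone had high Xist, the RNA of the inactive X chromosome (log2 signal 13.03, against 5.37 to 6.84 in the other 7 arrays), and low Kdm5d of the Y chromosome (3.41, against 8.93 to 9.54), and without it 13 of the plasma protein genes were called lower and 4 higher. All WT labels share a code and all KO labels share another, so preparation and genotype cannot be told apart.

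On this scale, 16 of the 34 tested plasma protein genes were called lower in KO and 4 higher, and 14 were not called. The lower calls depended on how the arrays were scaled. Under scaling to the hybridisation controls 0 were left, where 2.58% of all tested probe sets were called lower and 77.6% higher. A call is a Benjamini-Hochberg adjusted p under 0.05 from limma over all 23379 tested probe sets, of which 17.7% were called lower and 34.4% higher. The log2 difference (KO minus WT) was negative in 26 of the 34 genes. Its median was -0.36, against 0.17 over all tested probe sets. In 13 genes all KO arrays lay below all WT arrays, a pattern held by 17.4% of all tested probe sets, and in 4 genes all lay above, held by 32.4%. The 4 that were higher were F12, Serpinf1, Pros1 and Serpinc1. Among the lower ones, Serpina6, F7 and Hc had the largest differences, at -0.95, -0.87 and -0.85, and the others lay between -0.67 and -0.36.

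**Figure D1:**
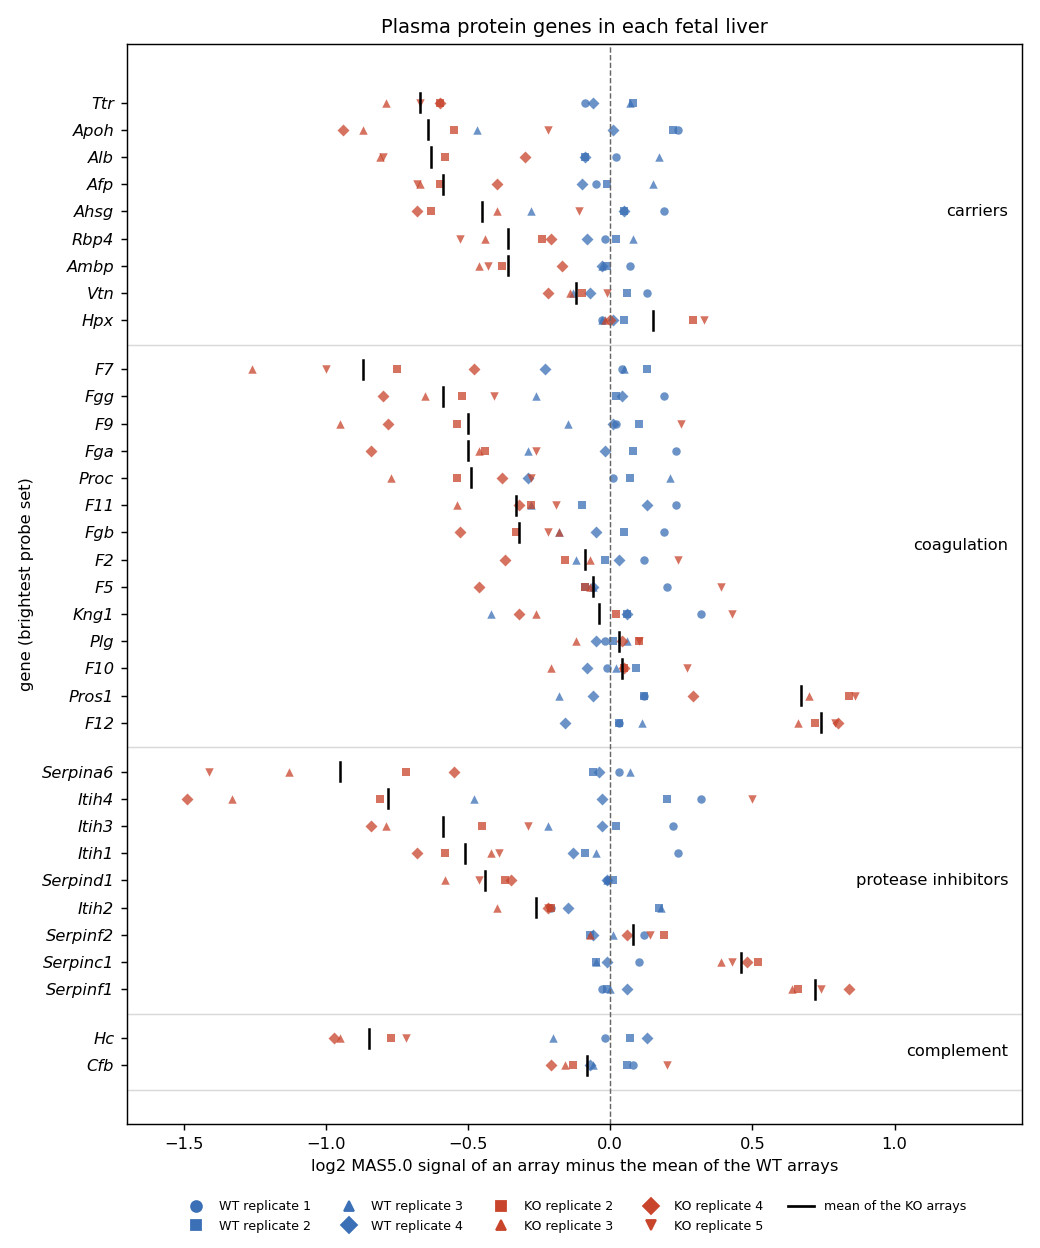
Log2 signal of each array minus the mean of the WT arrays (x axis) for the 34 tested plasma protein genes (y axis), grouped by role, with 1 symbol for each of the 4 WT and 4 KO arrays and a black bar at the KO mean. On the MAS5.0 scale most KO symbols lie left of 0, and those of F12, Serpinf1, Pros1 and Serpinc1 lie right of every WT symbol. Under scaling to the hybridisation controls the median of these genes turns to 0.39.

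Of the 9 tested carriers 7 were called lower in KO and 0 higher, with a median log2 difference of -0.45. Over all tested probe sets 17.7% were called lower and 34.4% higher, and 85.0% were lower among those above a log2 signal of 14. Alb, Afp, Ttr, Rbp4 and Ambp, all among the 7, were that bright. The differences of the 7 carriers called lower were positive under scaling to the hybridisation controls. After quantile normalization 0 of the 9 were called lower (background 22.9%). Alb, the main protein of plasma and its chief osmotic carrier, had log2 signals of 15.49, 15.38, 15.64 and 15.38 in WT and of 14.89, 14.66, 15.17 and 14.67 in KO. All KO arrays lay below all WT arrays. The means were 15.47 ± 0.12 (SD, n = 4) and 14.85 ± 0.24 (SD, n = 4), a 1.54-fold lower signal in KO (log2 difference -0.63, SE 0.14, limma adjusted p = 0.0055). Afp, the albumin relative that dominates fetal plasma, had log2 signals of 15.53, 15.57, 15.73 and 15.48 in WT and of 14.98, 14.91, 15.18 and 14.90 in KO. Again the groups did not overlap, and Afp was 1.5-fold lower (log2 difference -0.59, SE 0.11, limma adjusted p = 0.0022). The 3 bright Afp probe sets gave differences of -0.62 to -0.59. A dim Afp probe set ran the other way, with a difference of 1.75 that was not called (limma adjusted p = 0.069), and the other dim one, at -0.43, was not tested. With the mean of its 4 tested probe sets in place of the brightest, Afp differed by -0.02 and was not called (limma adjusted p = 0.95).

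Ttr (transthyretin), which carries thyroid hormone and binds the retinol carrier, had log2 signals of 15.29, 15.46, 15.45 and 15.32 in WT and of 14.78, 14.59, 14.78 and 14.71 in KO. It was 1.59-fold lower (log2 difference -0.67, SE 0.10, limma adjusted p = 0.00063), with no overlap, and all 4 Ttr probe sets were called lower, at -0.70 to -0.57. Rbp4, the retinol carrier itself, had log2 signals of 14.31, 14.35, 14.41 and 14.25 in WT and of 14.09, 13.89, 14.12 and 13.80 in KO. Its groups were apart by a smaller step, a difference of -0.36 (SE 0.11, limma adjusted p = 0.022). The call of Rbp4 was lost without WT replicate 2, WT replicate 3 or KO replicate 3, with adjusted p of 0.051 to 0.059 from limma. Ambp, the precursor of alpha-1-microglobulin and of the inhibitor bikunin, also differed by -0.36, from 14.30 to 14.40 in WT to 13.87 to 14.16 in KO (SE 0.10, limma adjusted p = 0.015).

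The calls of Ahsg and Apoh were lost when any 1 of several arrays was left out. Ahsg (fetuin-A), which keeps calcium phosphate in solution, had log2 signals of 13.82, 13.68, 13.35 and 13.68 in WT and of 12.95 to 13.52 in KO, so that the highest KO array, replicate 5, lay above WT replicate 3. Its difference of -0.45 (SE 0.16, limma adjusted p = 0.039) lost its call when any of 6 arrays was left out, all but WT replicate 3 and KO replicate 5. Apoh (beta-2-glycoprotein I), which binds phospholipids, had log2 signals of 13.28, 13.26, 12.57 and 13.05 in WT and of 12.49, 12.17, 12.10 and 12.82 in KO, with the same 2 arrays overlapping. Its difference of -0.64 (SE 0.21, limma adjusted p = 0.031) lost its call when any of WT replicates 1, 2 and 4 and KO replicates 3 and 4 was left out. Without these arrays the adjusted p from limma was 0.064 to 0.10 for Ahsg and 0.062 to 0.079 for Apoh.

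The carriers Hpx and Vtn were not called. Hpx (hemopexin), which takes up free heme, had log2 signals of 12.21 to 12.29 in WT and of 12.53, 12.22, 12.24 and 12.57 in KO, with KO replicates 2 and 5 above all WT arrays and the other 2 KO arrays within their range. Its difference was 0.15, with a 95% interval of -0.11 to 0.41 (limma adjusted p = 0.30). Vtn (vitronectin), an adhesive protein, differed by -0.12 on its brightest probe set and by -0.31 on another, neither called (limma adjusted p = 0.36 and 0.062).

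**Figure D2:**
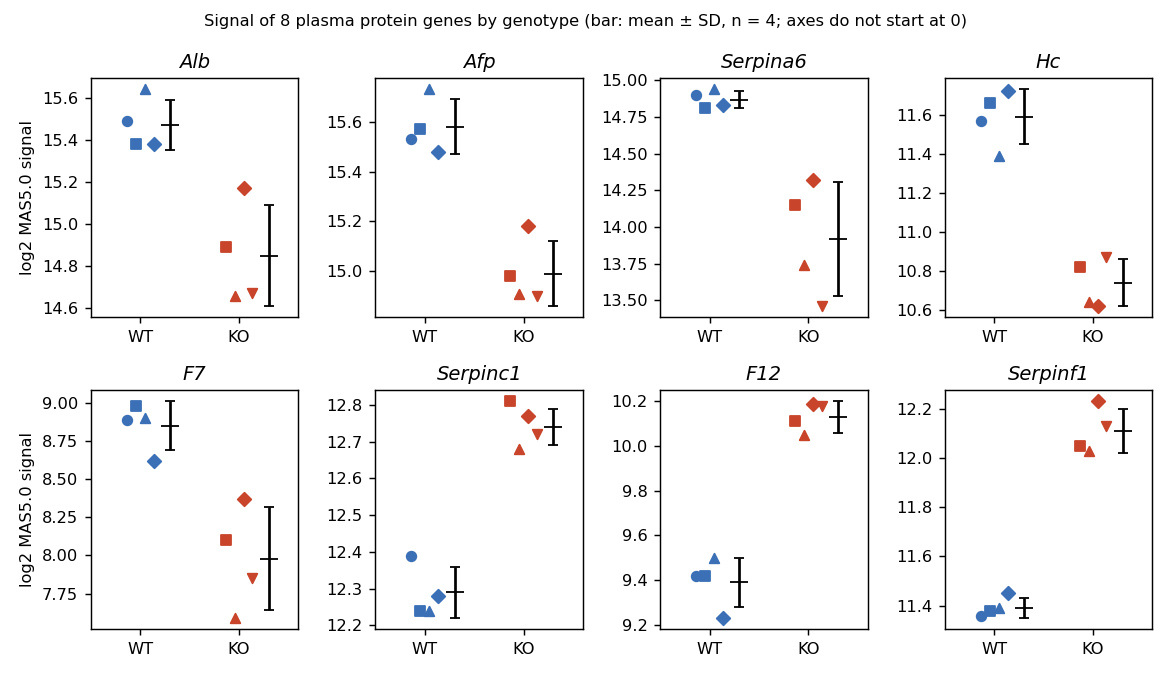
Log2 MAS5.0 signal (y axis, not starting at 0) of 8 plasma protein genes in the 4 WT and 4 KO arrays (x axis), with the mean and SD of each group. The KO arrays lie below all WT arrays for Alb, Afp, Serpina6, Hc and F7 and above them for Serpinc1, F12 and Serpinf1. Under scaling to the hybridisation controls the differences of Alb and Afp become 0.12 and 0.16.

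Of the 14 coagulation genes, 4 were called lower in KO (Fga, Fgg, F7 and Proc), 2 higher (F12 and Pros1) and 8 were not called, with a median log2 difference of -0.20. Over all tested probe sets 17.7% were called lower and 34.4% higher. With the hybridisation controls as the scale 0 of the 14 were called lower (background 2.58%), and the differences of Fga, Fgg and Proc turned positive. Fibrinogen, the protein that polymerises into fibrin, is built of 3 chains encoded by neighbouring genes. Its alpha chain gene Fga had log2 signals of 13.97, 13.82, 13.45 and 13.72 in WT and of 13.30, 13.28, 12.90 and 13.48 in KO. WT replicate 3 lay just below KO replicate 5, and the difference was -0.50 (SE 0.16, limma adjusted p = 0.027). That call was lost on leaving out any of the same 5 arrays, WT replicates 1, 2 and 4 and KO replicates 3 and 4 (limma adjusted p = 0.050 to 0.073). The gamma chain gene Fgg had log2 signals of 14.10, 13.93, 13.65 and 13.95 in WT and of 13.39, 13.26, 13.11 and 13.50 in KO, with no overlap and a 1.5-fold lower signal in KO (log2 difference -0.59, SE 0.13, limma adjusted p = 0.0058). The beta chain gene Fgb ran from 13.27 to 13.64 in WT and from 12.92 to 13.27 in KO, where the groups met but did not overlap. Its difference of -0.32 was not called (SE 0.12, limma adjusted p = 0.058), and it was called without WT replicate 3 (-0.38, adjusted p = 0.048).

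F7, which with tissue factor starts the extrinsic pathway, had log2 signals of 8.89, 8.98, 8.90 and 8.62 in WT and of 8.10, 7.59, 8.37 and 7.85 in KO. All KO arrays lay below all WT arrays, and F7 was 1.83-fold lower (log2 difference -0.87, SE 0.17, limma adjusted p = 0.0033). Its neighbour F10, whose product activates prothrombin, gave 3 answers on 3 probe sets. The brightest gave 0.04 (limma adjusted p = 0.81), another -0.33 (adjusted p = 0.16) and the third -1.14 (SE 0.15, adjusted p = 0.00036), with log2 signals of 9.12 to 9.22 in WT and of 7.59 to 8.29 in KO on the third. With the mean of these 3 probe sets in place of the brightest, F10 differed by -0.48 and was called lower (limma adjusted p = 0.015). Which of the 3 follows the main F10 transcript was not tested. F9, the factor lacking in haemophilia B, had log2 signals of 7.70 to 7.95 in WT and of 7.31, 6.90, 7.07 and 8.10 in KO. KO replicate 5 was above all WT arrays and the other 3 KO arrays below them, so the difference of -0.50 was not called (SE 0.24, limma adjusted p = 0.11), but it was -0.75 and called without KO replicate 5 (adjusted p = 0.0028).

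F12 (factor XII), which starts the contact pathway, was the coagulation gene that rose most. Its log2 signals were 9.42, 9.42, 9.5 and 9.23 in WT and 10.11, 10.05, 10.19 and 10.18 in KO. Every KO array exceeded every WT array, by a mean of 1.67-fold (log2 difference 0.74, SE 0.10, limma adjusted p = 0.00040). The rise was called in all 22 alternative settings, at 0.48 with 75th percentile scaling and 1.49 with the hybridisation controls. The other genes of the contact and intrinsic pathway did not share it. Klkb1 (prekallikrein), from the list of other plasma proteins of the liver, had a difference of -1.14 (SE 0.25, limma adjusted p = 0.005). All its KO arrays lay below all WT arrays, and with the hybridisation controls its difference was -0.39. F11, which activated factor XII activates, differed by -0.33 and was not called (limma adjusted p = 0.075), though it was called lower without WT replicate 3 (-0.42, adjusted p = 0.036). Kng1 (kininogen), the source of bradykinin, differed by -0.04 with a 95% interval of -0.51 to 0.43.

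Proc and Pros1, the anticoagulant protease protein C and its cofactor protein S, went opposite ways. Proc had log2 signals of 11.22, 11.28, 11.42 and 10.92 in WT and of 10.67, 10.44, 10.83 and 10.93 in KO, a difference of -0.49 (SE 0.15, limma adjusted p = 0.022). Its highest KO array, replicate 5, was level with its lowest WT array, and the call was lost without WT replicate 2, WT replicate 3 or KO replicate 3 (limma adjusted p = 0.052 to 0.060). Pros1 had log2 signals of 8.52, 8.52, 8.22 and 8.34 in WT and of 9.24, 9.10, 8.69 and 9.26 in KO. All KO arrays lay above all WT arrays, a 1.59-fold higher signal (log2 difference 0.67, SE 0.15, limma adjusted p = 0.0057). After quantile normalization the rise of Pros1 was 0.39 and no longer called (adjusted p = 0.068).

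Protein S is also made by endothelium and by megakaryocytes, the platelet precursors. Of the 10 endothelial markers tested 8 were called higher and 0 lower, with a median difference of 0.61. Their signals added up to 6750 to 7120 per WT array and to 8490 to 10400 per KO array. Over all tested probe sets 34.4% were called higher and 17.7% lower, and 40.6% were higher among those below a log2 signal of 10. After quantile normalization 4 markers were called higher and 0 lower (background 24.0% and 22.9%). With 75th percentile scaling 4 were higher and 1 lower (background 22.4% and 30.7%). Pecam1 and Kdr had the largest rises, at 1.73 and 1.19 (limma adjusted p = 0.00016 and 7.5e-05), while Cdh5 at 0.30 and Lyve1 at -0.11 were not called (limma adjusted p = 0.30 and 0.36). Of the 8 megakaryocyte markers 5 were called higher and 0 lower, with a median of 0.53 and sums of 24200 to 27100 and of 27200 to 33500. For these markers 3 were higher with 75th percentile scaling, and 7 after quantile normalization, with 0 lower in both. No gene of either list was below a signal of 100 on all 8 arrays. The part of these cells in the Pros1 signal was not tested.

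F2, F5 and Plg were not called on their brightest probe sets. F2 (prothrombin) differed by -0.09, with a 95% interval of -0.41 to 0.23, and Plg (plasminogen), the precursor of the enzyme that dissolves fibrin, by 0.03, with an interval of -0.18 to 0.25. For F5, the cofactor of factor Xa, the brightest probe set gave -0.06 (limma adjusted p = 0.80), whereas a dimmer one gave 0.75 (SE 0.15, adjusted p = 0.0032), from 8.81 to 9.19 in WT to 9.51 to 10.04 in KO. Factor V is likewise stored by megakaryocytes.

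Of the 9 genes grouped as protease inhibitors, 4 were called lower (Serpina6, Itih3, Itih1 and Serpind1), 2 higher (Serpinf1 and Serpinc1) and 3 were not called, at a median of -0.44. The shares over all tested probe sets were 17.7% lower and 34.4% higher. With hybridisation control scaling 0 of the 9 were called lower (background 2.58%) and the differences of Itih1, Itih3 and Serpind1 turned positive. Serpina6 and Serpinf1 belong to the serpin family by sequence but are not known to inhibit proteases. Serpina6 is corticosteroid-binding globulin, the carrier of glucocorticoids, and had the lowest difference of the 34 genes. Its log2 signals were 14.90, 14.81, 14.94 and 14.83 in WT and 14.15, 13.74, 14.32 and 13.46 in KO. No arrays overlapped, and the KO arrays spread more (13.92 ± 0.39, SD, n = 4) than the WT arrays (14.87 ± 0.06, SD, n = 4). Serpina6 was 1.94-fold lower (log2 difference -0.95, SE 0.18, limma adjusted p = 0.0027), and the call was kept in 21 of 22 alternatives, lost under hybridisation control scaling at -0.21.

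Serpinf1 (pigment epithelium-derived factor), which restrains vessel growth, had log2 signals of 11.36, 11.38, 11.39 and 11.45 in WT and of 12.05, 12.03, 12.23 and 12.13 in KO. It was 1.64-fold higher with no overlap (log2 difference 0.72, SE 0.09, limma adjusted p = 0.00033), its other probe set rose by 1.14 (SE 0.10, adjusted p = 3.5e-05), and the call was kept in all 22 alternatives. Stellate and mesenchymal cells also make this protein. Of their 11 markers 5 were called higher, 1 lower (Lhx2, -0.43) and 5 were not called, with a median of 0.28. Over all tested probe sets 34.4% were called higher and 17.7% lower. With 75th percentile scaling 4 markers were higher and 2 lower (background 22.4% and 30.7%), at a median of 0.01. After quantile normalization 5 were higher and 1 lower (background 24.0% and 22.9%). The signals of the markers added up to 20800 to 22200 per WT array and to 26000 to 33500 per KO array. The collagen genes Col1a1 and Col1a2 rose by 1.58 and 1.02 (limma adjusted p = 0.00024 and 0.00081), and no marker of the list was below 100 on all arrays. The part of these cells in the Serpinf1 signal was not tested.

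Serpinc1 (antithrombin), the main inhibitor of thrombin and factor Xa, had log2 signals of 12.39, 12.24, 12.24 and 12.28 in WT and of 12.81, 12.68, 12.77 and 12.72 in KO. The KO arrays were all above the WT arrays, a 1.37-fold higher signal (log2 difference 0.46, SE 0.09, limma adjusted p = 0.0031). With 75th percentile scaling the difference was 0.19 and not called (adjusted p = 0.11). Serpind1 (heparin cofactor II), the other thrombin inhibitor of the list, went the other way. Its log2 signals were 12.40, 12.42, 12.40 and 12.40 in WT and 12.04, 11.83, 12.06 and 11.95 in KO, a difference of -0.44 with no overlap (SE 0.09, limma adjusted p = 0.0045). Serpinf2 (alpha-2-antiplasmin), which inhibits plasmin, differed by 0.08 with a 95% interval of -0.15 to 0.31.

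The Itih genes encode heavy chains of the inter-alpha-inhibitor family, of which those of Itih1, Itih2 and Itih3 are linked to bikunin, a product of Ambp. Itih1 ran from 9.67 to 10.04 in WT and from 9.12 to 9.41 in KO (difference -0.51, SE 0.12, limma adjusted p = 0.0073). Itih3 ran from 12.95 to 13.39 and from 12.33 to 12.88 (difference -0.59, SE 0.16, adjusted p = 0.012). In both, all KO arrays lay below all WT arrays. Itih2 differed by -0.26 and was not called (limma adjusted p = 0.11). Itih4, whose product is not joined to bikunin and rises with inflammation, had log2 signals of 11.83, 11.71, 11.03 and 11.48 in WT and of 10.70, 10.18, 10.02 and 12.01 in KO. KO replicate 5 exceeded all WT arrays while the other 3 KO arrays lay below all of them, so that the difference of -0.78 had an SE of 0.41 and was not called (limma adjusted p = 0.14), and without KO replicate 5 it was -1.21 and called (adjusted p = 0.0049).

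Of the complement genes 2 were tested. Hc (complement C5), the precursor of the anaphylatoxin C5a and the first component of the membrane attack complex, had log2 signals of 11.57, 11.66, 11.39 and 11.72 in WT and of 10.82, 10.64, 10.62 and 10.87 in KO. All KO arrays lay below all WT arrays, and Hc was 1.80-fold lower (11.59 ± 0.14 in WT and 10.74 ± 0.12 in KO, SD, n = 4, log2 difference -0.85, SE 0.11, limma adjusted p = 0.00040). The call was kept in 21 of 22 alternatives, and under hybridisation control scaling the difference was -0.10. Cfb (factor B), a protease of the alternative pathway, differed by -0.08 with a 95% interval of -0.34 to 0.19.

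The differences followed the brightness of a probe set over the whole array, and the plasma protein genes were read against that. Among the 313 tested probe sets with a mean log2 signal above 14 over all arrays, the median difference was -0.51 (25th to 75th percentile -0.63 to -0.39), with 85.0% called lower. Among 16774 probe sets below 10 it was 0.31 (-0.13 to 0.87), with 40.6% called higher. The 6 plasma protein genes above 14, namely Afp, Alb, Ambp, Rbp4, Serpina6 and Ttr, were all called lower with a median of -0.61. Of these, Alb at -0.63 and Afp at -0.59 lay at the edge of or within the middle range of equally bright probe sets, Rbp4 and Ambp at -0.36 just above it, Ttr at -0.67 just below it, and Serpina6 at -0.95 well below it. From 12 to 14 the median over 1507 probe sets was -0.28, with 45.5% called lower and 10.9% higher. There 6 of 15 plasma protein genes were called lower and only Serpinc1 higher, and their median was -0.26. Serpinc1 at 0.46 stood above the middle range of that bin (-0.57 to 0.03), with Hpx at 0.15 and Serpinf2 at 0.08, while Apoh at -0.64 and Fgg and Itih3 at -0.59 stood below it.

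From 10 to 12 the median over 4785 probe sets was -0.04 (-0.36 to 0.31), and Serpinf1 at 0.72 lay above that middle range and Hc at -0.85, Itih4 at -0.78 and Proc at -0.49 below it. Below 10, F12 at 0.74 and Pros1 at 0.67 lay within the middle range, and F7 at -0.87, Itih1 at -0.51, F9 at -0.50 and F11 at -0.33 below it. The differences of Alb and Afp were thus close to those of other bright probe sets. The bins are a description of these 8 arrays. Whether the trend with brightness came from the tissue or from the arrays was not tested.

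**Figure D3:**
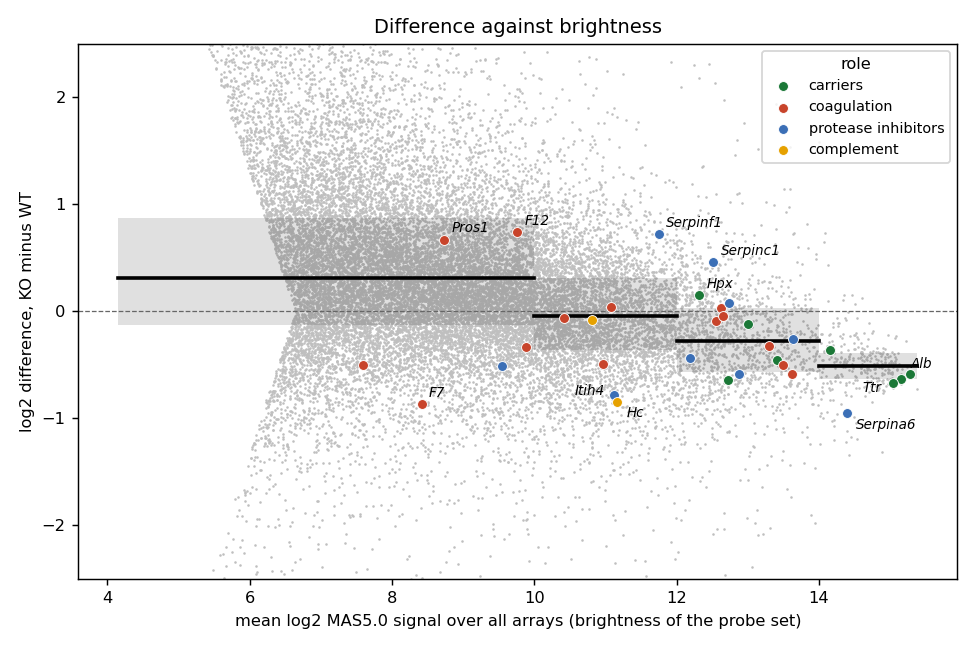
Log2 difference, KO minus WT (y axis, MAS5.0 scale), against the mean log2 signal over all 8 arrays (x axis) for all tested probe sets (grey, 724 of them beyond the y range) and the 34 plasma protein genes (colours by role). Black lines and shaded bands give the median and the middle range from the 25th to the 75th percentile in 4 bins of brightness, and the medians fall from 0.31 to -0.51 as brightness rises. Under scaling to the hybridisation controls every point moves up by 0.75.

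The scalings of the arrays gave different counts for the same genes. Scaling to an array's 75th percentile, to the hybridisation controls, to 27 poly-A control probe sets or to a hepatocyte reference moves all probe sets of an array together, and the median of these genes then stayed 0.53 below the median of all tested probe sets. With the 75th percentile 22 were called lower and 3 higher (background 30.7% and 22.4%), at a median of -0.62. With the hybridisation controls 0 were called lower and 17 higher (background 2.58% and 77.6%), at 0.39. With the poly-A controls the counts were 8 lower and 4 higher (background 10.1% and 34.7%), at -0.28. The hepatocyte reference, the mean of 28 tested transcription factor, enzyme and surface genes of hepatocytes, gave 4 lower and 6 higher (background 7.89% and 48.3%), at -0.09.

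Quantile normalization, which gives all arrays the same distribution and so removes the trend with brightness, left 7 lower and 6 higher (background 22.9% and 24.0%). The median of these genes was then -0.07, against -0.01 for all tested probe sets. The called changes were then F7 at -1.20, F9 at -0.92, Hc at -0.78, Itih1 at -0.69, Serpina6 at -0.52, Proc at -0.47 and F11 at -0.46 among the lower, and Serpinf1 at 0.86, Serpinc1 at 0.68, F12 at 0.60, Hpx at 0.36, Serpinf2 at 0.34 and Plg at 0.27 among the higher. Alb, Afp and Ttr were then at -0.07, -0.01 and -0.13, and none of these was called (limma adjusted p = 0.59, 0.95 and 0.30).

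**Figure D4:**
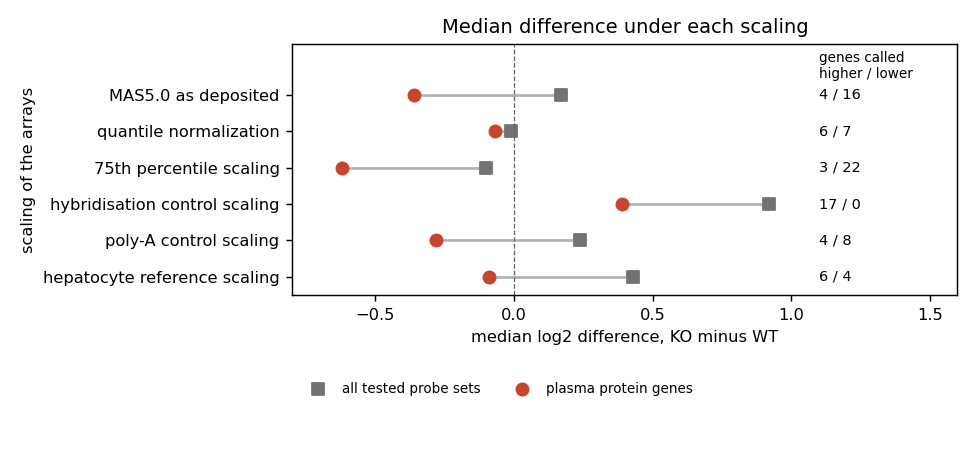
Median of the differences between KO and WT on the log2 scale (x axis) for the 34 plasma protein genes (circles) and for all tested probe sets (squares) under each scaling of the arrays (y axis), with the numbers of these genes called higher and lower at the right. The circle lies 0.53 left of the square under every scaling that shifts whole arrays, and 0.06 left of it after quantile normalization. It turns positive only with the hybridisation controls.

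Ratios within an array do not depend on a scaling that shifts all its probe sets together, and 8 of 10 listed pairs of genes that act together could be compared (Trf and C3, the missing partners of Hpx and Hc, were not analysed here). The brightness of a probe set is not an amount of transcript, so only the change of a ratio is read. In exact two-sided permutation tests, with 70 ways to assign the arrays, 0 of the 8 pairs passed after Benjamini-Hochberg adjustment, and 4 had an unadjusted p of 0.029, the smallest the design allows, and an adjusted p of 0.057. The log2 ratio of Proc to Pros1 was 2.70, 2.76, 3.20 and 2.58 in WT and 1.43, 1.33, 2.14 and 1.67 in KO, 2.24-fold lower with no overlap (a change of -1.17). That of F2 to Serpinc1, thrombin's precursor over its inhibitor, was 0.33, 0.33, 0.24 and 0.35 in WT and -0.36, -0.14, -0.54 and 0.12 in KO, 1.46-fold lower (-0.54). Ttr to Rbp4 went from 1.05 ± 0.06 to 0.74 ± 0.11 (SD, n = 4, a change of -0.31), and Fgb to Fgg from -0.45 ± 0.07 to -0.18 ± 0.13 (SD, n = 4, a change of 0.27), again with no overlap. Quantile normalization, which is no such shift, changed the differences of these ratios to -0.85 for Proc to Pros1, -0.52 for F2 to Serpinc1, -0.23 for Ttr to Rbp4 and 0.24 for Fgb to Fgg, with 0 pairs passing.

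The ratio of Alb to Afp, the adult over the fetal carrier, went from -0.11 ± 0.06 to -0.15 ± 0.11 (SD, n = 4), a change of -0.04 (exact permutation p = 0.54). Those of Fga to Fgb, Fga to Fgg and Plg to Serpinf2 changed by -0.18, 0.09 and -0.05, with overlapping arrays and exact permutation p of 0.086, 0.17 and 0.31. Leaving out any 1 array moved the change of Alb to Afp between -0.08 and -0.01 and that of Proc to Pros1 between -1.33 and -1.04.

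**Figure D5:**
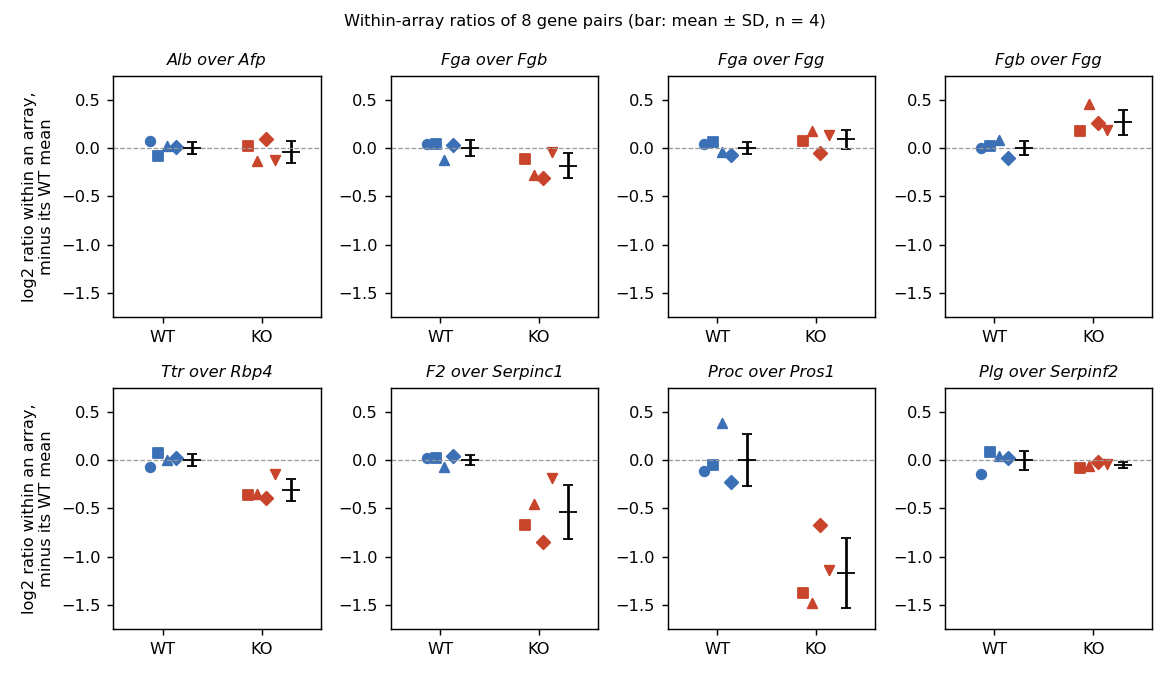
Log2 ratio of 2 genes within an array minus its WT mean (y axis) in the 4 WT and 4 KO arrays (x axis), for 8 pairs of plasma protein genes, with the mean and SD of each group. KO and WT arrays do not overlap for Fgb over Fgg, Ttr over Rbp4, F2 over Serpinc1 and Proc over Pros1, and they overlap for the other 4 pairs.

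Other gene lists of the hepatocyte, of its products and of the other liver cells were counted beside these genes, on the MAS5.0 scale. On that scale 34.4% of all tested probe sets were called higher and 17.7% lower. The hepatocyte identity of the tissue was visible in all 8 arrays through Alb, Afp and Ttr, whose log2 signals ran from 14.59 to 15.73. Of 16 hepatocyte transcription factors 14 were measured, 3 of them below a signal of 100 on all arrays, and of the 11 tested 3 were called higher and 1 lower, with a median of 0.09. Prox1, a factor of hepatoblasts and of lymphatic endothelium, rose by 2.10 (limma adjusted p = 4.6e-05), Tbx3, a hepatoblast factor, by 0.81 and Nr1h4, the bile acid receptor, fell by 0.91. Prox1 had a mean log2 signal of 6.41 in WT, below a signal of 100, and was tested through its KO mean alone. Of 17 hepatocyte enzymes and surface genes tested 10 were called lower and 1 higher, with a median of -0.41. Cps1 and Arg1 of the urea cycle had differences of -2.01 and -1.38 (limma adjusted p = 0.00016 and 0.0031), and Dlk1, a hepatoblast surface protein, of 0.34. Cps1 had a mean log2 signal of 5.56 in KO, below a signal of 100, and was tested through its WT mean alone.

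Of 10 apolipoproteins 6 were lower and 1 higher, at a median of -0.56. Apob, the scaffold of very low density lipoprotein, rose by 0.62, and Apof and Apoc1 had differences of -1.58 and -1.20. Of 34 other plasma proteins of the liver 18 were lower and 2 higher, at a median of -0.46. The 2 were Igfbp1, a binding protein of insulin-like growth factors, at 1.59 and Ecm1, a matrix protein, at 1.48. Azgp1 and the complement component C9 were at -2.19 and -1.97. Their mean log2 signals in KO were 4.98 and 5.61, below the minimum signal for testing. Azgp1 and C9 were thus tested through their WT means alone. Of 10 genes that process clotting factors 5 were lower and 0 higher, at -0.27, among them Nqo1 at -0.65 and Vkorc1, which recycles the vitamin K that F2, F7, F9, F10, Proc and Pros1 need for their modification, at -0.38. Of 11 acute phase genes 3 were lower and 1 higher, at 0.04, with Apcs at -1.54, Saa4 at -0.92 and Stat3 at 0.65.

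Of 23 tested receptors and partners of these proteins 11 were called higher and 2 lower, at a median of 0.72, against 34.4% higher and 17.7% lower over all probe sets. Vwf, the carrier of factor VIII made by endothelium and megakaryocytes, rose by 1.78, and Itga2b, a chain of the platelet fibrinogen receptor, by 1.76. The transferrin receptor gene Tfrc, abundant on erythroid precursors, had a difference of -1.73, and Cr1l, a complement regulator, of -0.48. Erythroid markers were lower in 8 of 9, with a median of -0.86 and Ank1 and Tspo2 at -3.02 and -2.57, and macrophage markers in 1 of 9 (Timd4, -1.23), with a median of -0.42. Platelet genes Treml1 and Gp1bb rose by 1.08 and 0.77. Under scaling to the hybridisation controls the medians of the enzymes (0.34), apolipoproteins (0.19), other plasma proteins (0.29), clotting factor processing (0.48) and macrophages (0.33) turned positive, and that of the erythroid markers stayed negative (-0.12). The medians of the transcription factors and of the acute phase genes turned negative after quantile normalization (-0.20 and -0.41) and with the 75th percentile (-0.18 and -0.23).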

How the data were processed

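The deposited values were MAS5.0 signals that the authors computed from Affymetrix Mouse Genome arrays, 1 intensity on a linear scale for each of 45101 probe sets and 8 arrays, where MAS5 and R 3.0.2 stand in the submitters' processing notes and the sources used here give no MAS5.0 version. Genes were named from the platform annotation, which can be old: 34945 probe sets had 1 symbol, 932 several and 9160 none, and 64 were controls, left out of tests. The signals were taken to log2 with no pseudocount, and where the mean of WT or of KO exceeded log2 of 100 a probe set was tested by limma 3.58.1 (lmFit and eBayes, two-sided, genotype the only term) in R 4.3.3, which replaced the methods' t-test, with Benjamini-Hochberg adjustment over 23379 probe sets. Exact permutation tests for 8 pairs, counts and figures used Python 3.11.15, pandas 2.3.3, numpy 2.4.6, scipy 1.17.1 and matplotlib 3.10.9. This fit was first tested on simulated data.

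The genes and the lists beside them were chosen with earlier results of these data known, so counts over them are descriptions, and the genes named outside the 38 are Klf1 and up to 2 called genes with the largest rise and 2 with the largest fall in each list. Further probe sets, Xist, Kdm5d, Cdh5, Lyve1, Klkb1, Hp, Cp, Hamp, Lcn2, Saa3, Crp, Hamp2, Socs3, Il6ra and Il1rn were named after their values were seen. Any 2 arrays had at most 1 identical value. Each embryo gave 1 array, and the sources used here give neither litters nor preparation days, so p-values measure the spread between these arrays. Precision is limited by the number of arrays, since an intensity is not a count. Alternatives were other scalings, pseudocounts of 16 and 64, no filter or a filter at 200, the mean of a gene's probe sets, trend and robust options, the methods' t-test, the replicate number as a block and leaving out each array. Promoter windows came from RefSeq on GRCm38.p6. WT and KO arrays share the numbers 2 to 4, but nothing in the sources used here ties same-numbered embryos to each other.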

Additional observations from a re-analysis of the deposited data

Results flagged for a closer look

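In F5, the cofactor of factor Xa, WT replicate 1 had a log2 signal of 10.65 on the brightest probe set, while the other 3 WT arrays lay at 10.36 to 10.39. In Itih2, a heavy chain of inter-alpha-inhibitor, KO replicate 3 had 13.37, while the other 3 KO arrays lay at 13.55 to 13.56. Each array was far from the rest of its group by Dixon's test. Of 68 groups of 4 arrays checked these 2 stood out, and chance alone gives about 1 in 20.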

How the results depend on the processing

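F12 and Serpinf1 kept their calls in all 22 alternatives. Of 748 recomputed values 619 stayed on their side of the threshold, 77 lost the call, 29 gained one and 23 changed sign with a call in at least 1 of both settings. Among the 619, 28 changed sign but were called in neither setting. Quantile normalization left 7 genes lower at a median of -0.07, with Rbp4 at 0.10 and Ambp at 0.09. The 75th percentile gave a median of -0.62. The hybridisation controls called 18741 probe sets in all, with 77.6% of those tested higher and 2.58% lower. Of these genes 17 were called higher and 0 lower, at a median of 0.39. That scaling turned Alb (0.12), Afp (0.16), Ttr (0.08), Rbp4 (0.39), Ahsg (0.29), Ambp (0.39), Vtn (0.63), Apoh (0.11), Fga (0.25), Fgb (0.43), Fgg (0.16), F2 (0.66), F5 (0.69), Kng1 (0.71), Proc (0.25), Serpind1 (0.31), Itih1 (0.24), Itih2 (0.49), Itih3 (0.16) and Cfb (0.67) positive, as well as F9 (0.25) and F11 (0.42), called in neither setting. The poly-A controls left 8 lower, and the hepatocyte reference 4, at a median of -0.09. Taking the mean of a gene's probe sets called 7904 entries, fewer because the probe sets of a gene were counted once. The entries were gene means and also the probe sets without a single symbol. F10 was then at -0.48 and called lower (limma adjusted p = 0.015), while Afp at -0.02 was no longer called. The methods' t-test called 17 of these genes lower and 4 higher unadjusted, and 13 and 4 after Benjamini-Hochberg adjustment. Leaving out 1 array gave 10624 to 12100 calls in all, 11 to 18 of these genes lower (11 without WT replicate 2 or KO replicate 3), 4 to 4 higher, and medians of -0.40 to -0.34. The cause of each change with the scaling was not tested. Pairs passing stayed at 0 under quantile normalization, both pseudocounts and the mean of probe sets. With 8 pairs adjusted together, none can pass unless more than 4 reach the smallest p of the design. A count that stays at 0 therefore says little about stability. The test of the pairs was not run without single arrays, where the smallest p would be 0.057.

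With the replicate number as a block, 7780 probe sets and 8 of these genes lower were called. The deviations of same-numbered arrays correlated at 0, -0.08 and -0.03, which showed no pairing by number. Whether same-numbered embryos shared a litter or a preparation day was not tested.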

Other observations

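KO replicate 5 was the highest KO array for several acute phase and related plasma proteins, chosen after their values were seen. In KO replicates 2, 3, 4 and 5 the log2 signal of Itih4 was 10.70, 10.18, 10.02 and 12.01. That of Hp (haptoglobin), which binds free hemoglobin, was 9.35, 9.39, 8.81 and 10.71, and that of Cp (ceruloplasmin), the copper carrier, was 9.01, 9.07, 8.07 and 10.77. That of Hamp (hepcidin), the iron hormone, was 9.95, 11.02, 8.21 and 12.40, and that of Lcn2 (lipocalin 2), which binds bacterial iron carriers, was 10.49, 11.37, 9.66 and 12.63. In each of these 5 genes KO replicate 4 was also the lowest KO array. Of the 5, none was called between KO and WT. Among the other tested genes of the acute phase list, Saa3, Crp, Apcs, Hamp2 and Stat3 were also highest in KO replicate 5. Saa4, Socs3, Il6ra and Il1rn were highest in another KO array, and Il6ra was lowest in KO replicate 5.

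In the WT arrays, replicate 3 was the lowest for Itih4 (11.03), Hp (9.25), Cp (8.37), Hamp (7.33), Lcn2 (9.78), Kng1 (12.25), Apoh (12.57), Fga (13.45), Fgb (13.27) and Fgg (13.65), while it was the highest for Alb (15.64) and Afp (15.73).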
